A study of Mus musculus with 16 samples.

Results

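Solute carriers are membrane proteins that are grouped into numbered subfamilies, and the symbols of their genes consist of Slc, the subfamily number and a letter with a member number. On the mouse U74Av2 array, 185 probe sets with a single gene symbol of this form represented 151 genes, of 8251 genes with such a probe set in all. They fall into 40 subfamilies. For the 29 genes with more than 1 probe set, the probe set with the highest mean signal was used. Of the 151 genes, 148 belong to carrier families, and 3 (Slc4a1ap, Slc9a3r1 and Slc9a3r2) encode adaptor proteins named after a carrier that they bind.

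Solute carriers move nutrients, ions, metals and metabolites across the plasma membrane and the membranes of organelles, either down the gradient of the solute itself or coupled to gradients of sodium or protons. Hepatocytes take up bile acids, fatty acids and organic anions from blood and release glucose into it, and their mitochondria exchange intermediates of the urea cycle and of fatty acid oxidation with the cytosol. Embryonic stem (ES) cells divide rapidly in culture and import glucose, amino acids and phosphate for growth.

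The arrays came from 6 groups, with 1 array per sample. Livers labelled Abca1 +/- (2 arrays) and +/+ livers (2 arrays) were from mice with 129/SvJ and C57BL6/J mixed in their background. The Cdk4 +/- ES line (3 arrays) and its control line E14 (3 arrays) grew without feeder cells. The Abca1 +/- ES line (3 arrays) and its +/+ parental line ESVJ (3 arrays) grew on irradiated embryonic fibroblasts, from which they were separated before about 2 days on gelatin and RNA isolation. RNA of these feeder-grown lines was isolated with Trizol and RNeasy, and that of the other lines and of the livers with RNeasy alone. Each ES group is 1 cell line, and the labels do not say whether its arrays come from separate cultures, so p-values measure only the spread between these samples. The labels number no replicates, and the replicate numbers used here follow the order of the records and pair nothing.

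The MAS5.0 intensities were brought to a common trimmed mean of 500, after which array medians ranged between 126 and 170. Changes are given as differences of log2(signal + 32), a scale on which weakly expressed genes change less than their signals do. Genes are called risen, fallen or passed at a Benjamini-Hochberg adjusted p under 0.05, with every probe set of the model counted. Probe sets with a mean signal under 100 in the arrays of a model were not tested. This left 110 of the 151 solute carrier genes in the fit of the livers with the Abca1 +/- and ESVJ lines, 96 in the fit of the 4 ES groups and 101 in that of the livers, and 36 genes were in no fit. Summed signals of 7 ES cell markers were 231 to 328 in the livers and 30910 to 58590 in the ES arrays, and those of 6 hepatocyte markers were 132000 to 178400 in the livers and 207 to 478 in the ES arrays. Cdk4 itself had signals of 3448, 3854 and 3731 in Cdk4 +/- cells, against 5822, 5498 and 5827 in E14 cells (log2 change -0.63, SE 0.10, adjusted p = 0.00436). Its second probe set did not pass (-0.70, SE 0.24, adjusted p = 0.104). Abca1 had signals of 94.0, 114 and 123 in Abca1 +/- ES cells, against 178, 144 and 102 in ESVJ cells, with overlap (-0.26, SE 0.20, adjusted p = 0.9997). By the brighter of its 2 probe sets, Abca1 was higher in both livers labelled Abca1 +/-, at 699 and 555, than in both +/+ livers, at 327 and 301 (0.92, SE 0.33, adjusted p = 0.191), which goes against the label. The second probe set read 41.5 and 161 in livers labelled Abca1 +/-, against 295 and 140 in +/+ livers. In bulk RNA, fewer cells of a type and less RNA per cell cannot be told apart.

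The widest differences among solute carriers were between +/+ livers and ESVJ cells. Of the 110 genes tested, 37 were higher in +/+ liver (33.6%) and 31 were lower (28.2%), beside 23.5% higher and 43.9% lower among all probe sets tested. The median change was 0.17 for the solute carriers and -0.38 for all probe sets. Under quantile normalization, which moved the median of all probe sets to -0.09, the split became 51 higher and 28 lower of 110. A mean signal of at least 100 was reached in both groups by 75 of the genes, in +/+ liver alone by 16 and in ESVJ alone by 18. Of the 68 calls, 51 held when any 1 array was left out, and an array that ends one of the others is named beside it. Tissue and cultured line differ in many ways, so the comparison describes what each expresses.

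**Figure D1:**
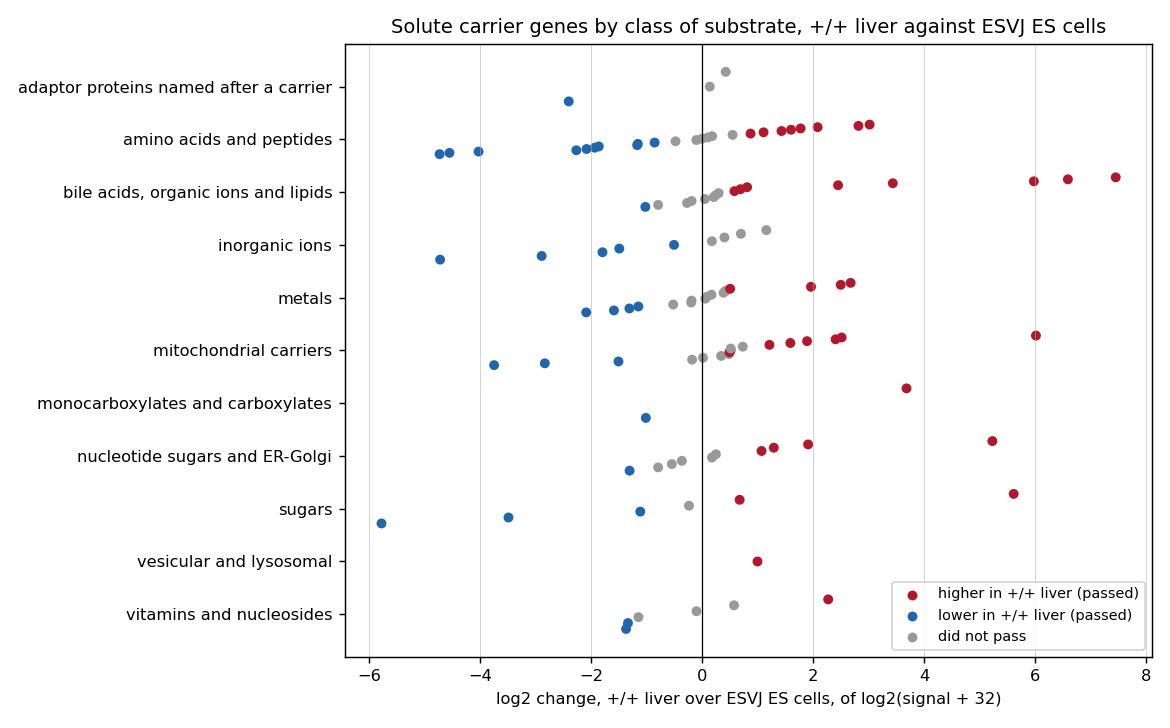
Log2 change of each tested solute carrier gene in +/+ liver over ESVJ ES cells (horizontal axis), by class of substrate; each point is 1 gene, red where it passed as higher in +/+ liver, blue where it passed as lower and grey where it did not pass. Changes reach 7.45 for a carrier of the class of bile acids, organic ions and lipids and -5.78 for a sugar carrier, and no carrier of inorganic ions passed as higher. Classes follow the subfamily, so Slc5a6 is drawn with the sugar carriers and Slc37a4 with those of nucleotide sugars and the ER and Golgi.

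Among carriers of bile acids, organic ions and lipids, 8 of 16 tested were higher in +/+ liver and 1 was lower. Slc27a5, which encodes the fatty acid transport protein that also joins coenzyme A to bile acids, had signals of 8354 and 7607 in +/+ livers, against 8.39, 15.7 and 18 in ESVJ cells. Its rise of 7.45 (SE 0.24, adjusted p = 5.34e-11) was the largest of the set. Slc10a1, which encodes NTCP, the sodium-coupled bile acid importer of the hepatocyte's blood-facing membrane, had signals of 7977 and 7605 in +/+ livers, against 54.9, 19.9 and 87.6 in ESVJ cells (6.59, SE 0.31, adjusted p = 1.77e-09). A second of its 3 probe sets showed the same contrast, at 7181 and 5589 in +/+ livers and at most 41.3 in ESVJ cells, while the third read at most 38.7 in all of these arrays. Slc22a30, of the organic ion transporter subfamily, had signals of 2799 and 3231 in +/+ livers, against 38.1, 15.1 and 2.30 in ESVJ cells (5.97, SE 0.36). The name of its probe set carries a suffix, and Slc22a30 was not measured with suffixed probe sets left out. Slc27a2, which encodes another fatty acid transport protein, had signals of 3363 and 4265 in +/+ livers, against 415, 250 and 321 in ESVJ cells (3.43, SE 0.21). These 4 genes did not overlap between the groups in any array.

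The organic ion transporters of subfamily 22 counted 4 higher and 0 lower of 6 tested. Besides Slc22a30 they were Slc22a18, at 1563 and 1174 in +/+ livers and 198, 289 and 192 in ESVJ cells (2.44, SE 0.23), Slc22a5 and Slc22a2. Slc22a5 encodes the sodium-coupled carnitine importer OCTN2 and had signals of 255 and 162 in +/+ livers, against 100, 93.7 and 115 in ESVJ cells (0.81, SE 0.26, adjusted p = 0.0144). Its call ended without +/+ liver replicate 1 (0.52, adjusted p = 0.157). Slc22a2, an organic cation transporter gene, had signals of 111 and 170 in +/+ livers and 77.7, 74.4 and 68.8 in ESVJ cells (0.69, adjusted p = 0.027), and its call ended without any one of 3 arrays, with 0.44 and adjusted p = 0.224 without +/+ liver replicate 2. The choline-like transporter genes were split. Slc44a4 passed as higher, at 707 and 863 in +/+ livers and 442, 498 and 613 in ESVJ cells (0.58, adjusted p = 0.0199). Its call ended without any one of 3 arrays, with 0.44 and adjusted p = 0.142 without +/+ liver replicate 2. Slc44a2 passed as lower, at 71.6 and 37.7 in +/+ livers and 175, 148 and 108 in ESVJ cells (-1.03, adjusted p = 0.00953), a call that ended without +/+ liver replicate 2 (-0.74, adjusted p = 0.104).

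Sugar carriers differed in opposite directions within subfamily 2, the facilitative hexose transporters. Slc2a2 encodes GLUT2, the low-affinity glucose carrier of hepatocytes, and had signals of 3445 and 2587 in +/+ livers, against 21.6, 24.1 and 46.4 in ESVJ cells (5.61, SE 0.29, adjusted p = 3.61e-09). Slc2a1 encodes GLUT1, the glucose carrier of most cultured cells, and had signals of 28.2 and 19.2 in +/+ livers, against 3801, 2827 and 2574 in ESVJ cells. Its change of -5.78 (SE 0.25, adjusted p = 7.34e-10) was the largest fall of the set. Slc2a3, which encodes the high-affinity carrier GLUT3, had signals of 375 and 255 in +/+ livers, against 4576, 4010 and 3027 in ESVJ cells (-3.49, SE 0.24, adjusted p = 4.85e-08). All 12 ES arrays lay above all 4 livers for Slc2a1 and Slc2a3 and below them for Slc2a2, as the plot of signals by array shows. Slc37a4, which brings glucose 6-phosphate into the endoplasmic reticulum for the last step of glucose release, had signals of 4511 and 4888 in +/+ livers, against 76.2, 110 and 99.9 in ESVJ cells (5.22, SE 0.39, adjusted p = 1.06e-07). Slc50a1, a sugar efflux transporter gene, had signals of 473 and 436 in +/+ livers and 272, 288 and 261 in ESVJ cells (0.67, adjusted p = 0.0095), and its call ended without +/+ liver replicate 1 (adjusted p = 0.0525).

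**Figure D2:**
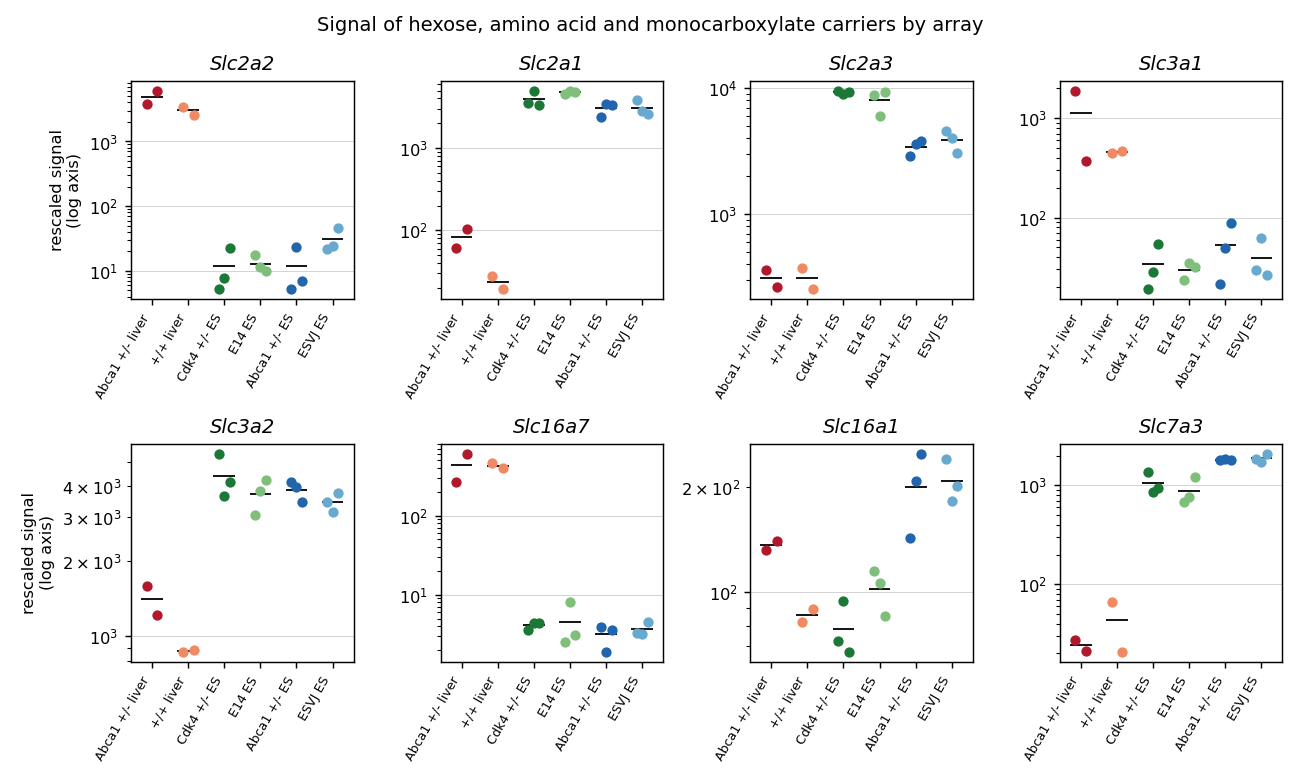
Rescaled signal (log axis) of 8 solute carrier genes in each of the 16 arrays, by group; points are arrays and bars are group means, over 2 arrays per liver group and 3 per ES group. Slc2a2, Slc3a1 and Slc16a7 are higher in the livers, and Slc2a1, Slc2a3, Slc3a2 and Slc7a3 are higher in the ES arrays.

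The promoters of the genes with the largest rises and falls that the RefSeq table holds (GRCm38.p6) are shown, since these members mark each sample type. Each window runs from 250 bases before to 50 after an annotated start, is written 5′ to 3′ on the gene's strand, and has its CG pairs in capitals. Where a gene has several annotated starts, the first entry of the table is shown.
Slc10a1 promoter, chr12:80968656-80968955, minus strand: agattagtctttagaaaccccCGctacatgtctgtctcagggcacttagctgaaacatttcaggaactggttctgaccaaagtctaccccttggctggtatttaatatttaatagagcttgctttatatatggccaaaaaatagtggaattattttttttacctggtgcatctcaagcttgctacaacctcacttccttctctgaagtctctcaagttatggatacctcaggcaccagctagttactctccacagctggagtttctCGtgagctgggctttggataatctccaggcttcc
Slc25a47 promoter, chr12:108850879-108851178, plus strand: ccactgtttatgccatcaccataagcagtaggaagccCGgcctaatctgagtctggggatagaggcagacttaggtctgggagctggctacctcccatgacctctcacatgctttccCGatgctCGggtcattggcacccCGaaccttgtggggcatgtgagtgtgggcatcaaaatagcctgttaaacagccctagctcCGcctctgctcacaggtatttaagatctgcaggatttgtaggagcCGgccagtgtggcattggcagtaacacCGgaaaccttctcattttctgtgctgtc
Slc2a1 promoter, chr4:119108495-119108794, plus strand: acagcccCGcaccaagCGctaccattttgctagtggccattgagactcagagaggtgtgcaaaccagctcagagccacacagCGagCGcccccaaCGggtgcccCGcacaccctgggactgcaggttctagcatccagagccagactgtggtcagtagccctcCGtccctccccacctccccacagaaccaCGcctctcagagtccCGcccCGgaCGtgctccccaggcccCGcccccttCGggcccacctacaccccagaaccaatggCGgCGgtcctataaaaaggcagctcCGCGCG
Slc20a1 promoter, chr2:129198523-129198822, plus strand: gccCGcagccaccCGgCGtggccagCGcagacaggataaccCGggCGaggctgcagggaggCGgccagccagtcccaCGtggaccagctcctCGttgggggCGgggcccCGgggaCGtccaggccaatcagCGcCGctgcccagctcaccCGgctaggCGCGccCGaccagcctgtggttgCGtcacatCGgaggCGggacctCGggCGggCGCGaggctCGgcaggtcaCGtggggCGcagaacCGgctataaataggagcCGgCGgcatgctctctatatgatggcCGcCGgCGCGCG
The windows of the liver genes hold 2 (Slc10a1) and 7 (Slc25a47) CG pairs and those of the ES cell genes 18 (Slc2a1) and 36 (Slc20a1). Windows were found for 33 of the 37 genes higher in +/+ liver and for 22 of the 31 lower ones. The median number of CG pairs per gene was 13 in the first set, with a range of 0 to 34, and 24.2 in the second, with a range of 8.8 to 48, beside 16.5 for all solute carriers with a window and 7.0 for all genes of the table. Motifs were searched on both strands, and none of them contains another. GGGCGG, the GC box, which holds a CG pair itself, was in a window of 72.7% of the genes higher in +/+ liver and of 95.5% of the lower ones, beside 70.2% of all solute carriers with a window and 38.2% of all genes. Counted per window, since genes differ in their number of windows, the shares were 54.9%, 78.9%, 61.7% and 35.7% of these sets in turn. Per gene, TATAAA was found for 18.2%, 9.09%, 10.5% and 15.7%, CAAAGTC, part of the consensus of the hepatocyte factor HNF4A, for 12.1%, 9.09%, 6.45% and 5.0%, and GTTAAT, part of the consensus of the hepatocyte factor HNF1, for 6.06%, 4.55%, 6.45% and 8.24%. In the windows shown, GGGCGG occurs at 2 places each in Slc2a1 and Slc20a1, CAAAGTC at 1 place in Slc10a1, and TATAAA at 1 place each in Slc10a1, Slc2a1 and Slc20a1. These are matches of letters, not sites shown to be bound.

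Of 24 tested carriers of amino acids and peptides, 8 were higher in +/+ liver and 10 lower. Slc7a3, which encodes the arginine and lysine carrier CAT3, had signals of 66.4 and 20.7 in +/+ livers, against 1852, 1726 and 2098 in ESVJ cells (-4.74, SE 0.25, adjusted p = 4.16e-09). Slc7a7, which encodes the light chain y+LAT1, had signals of 23.4 and 128 in +/+ livers, against 2039, 2313 and 2221 in ESVJ cells (-4.56, SE 0.36). Slc6a8, which encodes the creatine transporter, had signals of 16.4 and 9.72 in +/+ livers, against 712, 708 and 692 in ESVJ cells (-4.03, SE 0.22). Both groups were far apart for all 3 genes. Slc7a2, which encodes CAT2, the cationic amino acid carrier known from liver, had signals of 519 and 369 in +/+ livers, against 102, 139 and 202 in ESVJ cells (1.43, SE 0.42, adjusted p = 0.00913). Its call ended without +/+ liver replicate 1 (1.20, adjusted p = 0.0813).

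The 2 heavy chains that carry such light chains to the plasma membrane differed in opposite directions. Slc3a1, the heavy chain rBAT, had signals of 446 and 471 in +/+ livers, against 29.6, 62.9 and 26.1 in ESVJ cells (2.81, SE 0.53, adjusted p = 4.41e-04). Slc3a2, the heavy chain 4F2hc, had signals of 867 and 879 in +/+ livers, against 3458, 3148 and 3753 in ESVJ cells (-1.94, SE 0.18). Its partner Slc7a5, which encodes the large neutral amino acid carrier LAT1, had signals of 637 and 313 in +/+ livers, against 2334, 2200 and 2325 in ESVJ cells (-2.27, SE 0.26). Among the sodium-coupled neutral amino acid carriers of subfamily 38, Slc38a4 rose and Slc38a2 and Slc38a10 fell. Slc38a4 had signals of 5412 and 3293 in +/+ livers, against 1294, 1236 and 1622 in ESVJ cells (1.60, SE 0.25), and Slc38a2 had 354 and 446 in +/+ livers, against 2373, 1887 and 1287 in ESVJ cells (-2.09, SE 0.26).

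Subfamily 6, coupled to sodium and chloride, counted 4 higher and 3 lower of 10 tested. Slc6a13, which encodes the GABA and taurine carrier GAT2, had signals of 2499 and 1674 in +/+ livers, against 196, 287 and 202 in ESVJ cells (3.01, SE 0.24, adjusted p = 1.8e-07). Slc6a12, which encodes the betaine and GABA carrier, had signals of 378 and 277 in +/+ livers, against 63.1, 29.4 and 70.9 in ESVJ cells (2.08, SE 0.30). Slc6a9, the glycine carrier GlyT1, rose by 1.10 (SE 0.24, adjusted p = 0.00119), with 1090 and 1537 in +/+ livers and 575, 526 and 664 in ESVJ cells. Slc6a6, the taurine carrier, had signals of 334 and 331 in +/+ livers, against 944, 788 and 664 in ESVJ cells (-1.18, SE 0.22). Slc6a15, a neutral amino acid carrier, fell by 1.87 (SE 0.36). Slc6a4, the serotonin carrier, rose by 0.87 and lost its call without +/+ liver replicate 1 (0.56, adjusted p = 0.138). The name of this probe set marks probes that may bind related transcripts. The second Slc6a4 probe set overlapped, at 16.95 and 20.98 in +/+ livers and 16.42, 18.99 and 21.42 in ESVJ cells. Among the glutamate and neutral amino acid carriers, Slc1a2 (GLT-1) had signals of 325 and 315 in +/+ livers, against 134, 33.3 and 69.1 in ESVJ cells (1.77, SE 0.40, adjusted p = 0.0015), and the groups did not overlap.

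Of 17 tested mitochondrial carriers of subfamily 25, 8 were higher in +/+ liver and 3 were lower. Slc25a47, a carrier known for its expression in hepatocytes, had signals of 12150 and 10470 in +/+ livers, against 135, 144 and 152 in ESVJ cells (6.01, SE 0.28, adjusted p = 1.36e-09). Slc25a15, which encodes the ornithine carrier of the urea cycle, had signals of 9581 and 5361 in +/+ livers, against 1305, 1211 and 1187 in ESVJ cells (2.51, SE 0.22). Slc25a10, the dicarboxylate carrier, had signals of 1383 and 1137 in +/+ livers, against 202, 190 and 246 in ESVJ cells (2.40, SE 0.23). Slc25a20, which carries acylcarnitines into mitochondria for fatty acid oxidation, had signals of 2996 and 4669 in +/+ livers, against 914, 1056 and 1002 in ESVJ cells (1.89, SE 0.20). No liver array overlapped with an ESVJ array for these carriers. Slc25a17, a carrier of coenzyme A and other cofactors that is located in peroxisomes, had signals of 2976 and 2641 in +/+ livers, against 1090, 1038 and 1507 in ESVJ cells (1.21, SE 0.22).

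The carriers that fell in subfamily 25 were Slc25a36, Slc25a4 and Slc25a28. Slc25a36, which encodes a pyrimidine nucleotide carrier, had signals of 109 and 117 in +/+ livers, against 1992, 1916 and 1848 in ESVJ cells (-3.75, SE 0.18, adjusted p = 2.1e-09). Slc25a4, the ADP/ATP exchanger ANT1, had signals of 329 and 518 in +/+ livers, against 3319, 3011 and 3146 in ESVJ cells (-2.84, SE 0.22). Slc25a5, the exchanger ANT2, did not pass, at 2449 and 3691 in +/+ livers and 2968, 2856 and 3138 in ESVJ cells (0.01, adjusted p = 0.97). Slc25a28, one of the iron importers named mitoferrins, had signals of 251 and 214 in +/+ livers, against 713, 832 and 630 in ESVJ cells (-1.51, adjusted p = 9.6e-05). A list of 10 urea cycle and mitochondrial carriers of liver metabolism, which includes Slc37a4, was chosen with earlier results of these data known. It is not independent evidence. All 7 members on the array passed as higher in +/+ liver with a median change of 1.89, beside 23.5% higher among all probe sets. Of these, Slc25a1, the citrate carrier (0.49, adjusted p = 0.0472), lost its call without any one of 7 arrays (0.39 and adjusted p = 0.21 without +/+ liver replicate 1), and Slc25a11, the oxoglutarate carrier (0.51, adjusted p = 0.033), without any one of 3 (0.40 and adjusted p = 0.182 without +/+ liver replicate 2). Slc25a25, a calcium-regulated ATP-Mg carrier, rose by 1.58 with signals of 2755 and 1289 in +/+ livers and 511, 733 and 599 in ESVJ cells, and its call ended without +/+ liver replicate 1 (1.05, adjusted p = 0.171).

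Carriers of inorganic ions were at lower signal in +/+ liver where they passed, with 0 higher and 5 lower of 9 tested. Slc20a1, which encodes PiT-1, the sodium-coupled phosphate importer, had signals of 73.0 and 31.5 in +/+ livers, against 2207, 2062 and 2122 in ESVJ cells (-4.73, SE 0.24, adjusted p = 3.17e-09). All 3 tested cation-chloride cotransporters of subfamily 12 passed as lower. Slc12a2, the sodium-potassium-chloride importer NKCC1, had signals of 103 and 87.3 in +/+ livers, against 1101, 764 and 907 in ESVJ cells (-2.90, SE 0.20). Slc12a7, the potassium-chloride exporter KCC4, had signals of 198 and 105 in +/+ livers, against 581, 648 and 533 in ESVJ cells (-1.80, SE 0.33). Slc12a4, the exporter KCC1, had signals of 274 and 334 in +/+ livers, against 439, 407 and 490 in ESVJ cells (-0.51, SE 0.20, adjusted p = 0.041). The Slc12a4 call ended without any one of 7 arrays, with -0.38 and adjusted p = 0.207 without +/+ liver replicate 1. Slc4a3, an anion exchanger gene, fell by 1.5 and lost its call without +/+ liver replicate 2 (-0.70, adjusted p = 0.0877).

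Metal carriers counted 4 higher and 4 lower of 16 tested. Slc31a1, which encodes the copper importer CTR1, had signals of 4541 and 4633 in +/+ livers, against 617, 770 and 701 in ESVJ cells (2.67, SE 0.17, adjusted p = 3e-08), and its second probe set showed the same order. Slc39a8, the zinc and manganese importer ZIP8, had signals of 336 and 305 in +/+ livers, against 30.3, 20.8 and 42.3 in ESVJ cells (2.49, SE 0.28). Slc39a1, the zinc importer ZIP1, rose by 1.96 with signals of 1922 and 1070 in +/+ livers and 394, 316 and 332 in ESVJ cells, a call that ended without +/+ liver replicate 1 (1.54, adjusted p = 0.0958). The falls were of Slc41a1, Slc39a7, Slc39a6 and Slc30a1. Slc41a1, a magnesium transporter gene, had signals of 36.5 and 47 in +/+ livers, against 274, 357 and 228 in ESVJ cells (-2.09, SE 0.27). Slc39a7, the zinc carrier ZIP7 of the endoplasmic reticulum, had signals of 475 and 347 in +/+ livers, against 1458, 910 and 1625 in ESVJ cells (-1.59, adjusted p = 6.4e-05). Slc30a1, the zinc exporter ZnT1, fell by 1.15 and lost its call without +/+ liver replicate 2 (-0.76, adjusted p = 0.075). Slc30a3, the zinc carrier ZnT3, rose by 0.50 and lost its call without any one of 3 arrays (0.43, adjusted p = 0.0727 without ESVJ replicate 1).

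The remaining classes held single members with wide differences. Slc16a7, which encodes the monocarboxylate carrier MCT2, had signals of 455 and 396 in +/+ livers, against 3.30, 3.20 and 4.53 in ESVJ cells (3.68, SE 0.32, adjusted p = 4.39e-07). Slc16a1, which encodes MCT1, had signals of 82.0 and 89.5 in +/+ livers, against 240, 183 and 201 in ESVJ cells (-1.02, SE 0.25, adjusted p = 0.00326). Both monocarboxylate carriers tested thus passed, one in each direction. Slc46a1, the proton-coupled folate and heme carrier, had signals of 531 and 306 in +/+ livers, against 65.9, 53.1 and 57.4 in ESVJ cells (2.27, SE 0.26). Slc29a1, the equilibrative nucleoside carrier ENT1, had signals of 1653 and 949 in +/+ livers, against 3066, 3158 and 3721 in ESVJ cells (-1.38, SE 0.25). Its second probe set went the other way, at 203.3 and 178.2 in +/+ livers and 57.07, 99.98 and 135.4 in ESVJ cells. Slc5a6, the biotin and pantothenate carrier, fell by 1.12 and lost its call without any one of 4 arrays (-0.22, adjusted p = 0.535 without +/+ liver replicate 1). Among nucleotide sugar transporters, Slc35b2, which brings the sulfate donor PAPS into the Golgi, had signals of 1579 and 2664 in +/+ livers, against 430, 536 and 624 in ESVJ cells (1.91, SE 0.25). Slc35d1 (1.29, SE 0.31) and Slc35a1, the CMP-sialic acid carrier (1.07, adjusted p = 8e-04), also rose, and Slc35e1 fell by 1.31. The second Slc35e1 probe set overlapped, at 217.2 and 124.8 in +/+ livers and 208.2, 292.4 and 206.2 in ESVJ cells. The adaptor gene Slc4a1ap fell by 2.41 (SE 0.43), with 129 and 15.6 in +/+ livers and 332, 495 and 492 in ESVJ cells.

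Of 20 listed carriers of hepatocyte uptake, 13 were on the array and 12 were tested in this fit. The list also holds Slc25a47, a mitochondrial carrier, which is among those tested. Of the 12 tested, 10 passed as higher in +/+ liver and 2, Slc16a1 and Slc29a1, as lower, with a median change of 2.54. Among all probe sets tested, 23.5% were higher and 43.9% lower. The list and its direction were chosen with the tissue in mind and are not independent evidence. Slc17a1, a phosphate and organic anion carrier and the member left out by the filter, had signals of 205 and 186 in +/+ livers and 24.1, 41.1 and 55.0 in ESVJ cells. Other transport genes were counted for context. Of 9 tested Slco carriers and ABC exporters, 5 were higher in +/+ liver and 3 lower, led by Abcb4, the phospholipid exporter of bile (3.26, SE 0.31), Abcc3 (3.42, SE 0.50) and Abcb1a (-2.80, SE 0.28). All 3 tested water channels rose, Aqp1 by 4.57 (SE 0.31), Aqp9 by 4.43 (SE 0.31) and Aqp8 by 3.46 (SE 0.27). Of 12 tested sodium and proton pump genes, 4 rose and 5 fell, with a median of 0.09, and the largest were Fxyd1, a regulator of the sodium pump (4.69, SE 0.27), and Atp6v1b2, a subunit of the proton pump (-2.25, SE 0.16). Of 5 tested partner proteins of solute carriers, 2 rose (Pdzk1 by 2.90 and Bsg by 0.76) and 1 fell (Emb by 3.88).

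The 2 +/+ ES lines also differed in their solute carriers. Of 96 genes tested, 24 were higher in E14 cells (25%) and 15 lower (15.6%), beside 19.8% higher and 22.8% lower among all probe sets tested. The median change was -0.05 for the solute carriers and -0.09 for all probe sets. E14 and ESVJ cells differ in line, feeder culture and RNA isolation, which cannot be told apart. The summed signal of 8 feeder fibroblast markers was 2210 to 2409 in E14 arrays and 2031 to 2262 in ESVJ arrays. Of 3 tested feeder markers, 1 was higher and 1 lower in E14 cells, with changes between -0.60 and 1.22. The summed signal of 7 ES cell markers was 30910 to 36630 in E14 arrays and 50590 to 58590 in ESVJ arrays, with all 7 lower in E14 cells. Markers of kidney, gut and pancreas summed to 266 to 389 in E14 arrays and 879 to 992 in ESVJ arrays, with 2 of 3 tested lower in E14 cells, and 6 blood and immune cell markers to 708 to 797 in E14 arrays and 931 to 1047 in ESVJ arrays, with 0 of 3 tested passing. The part of these markers in the results was not tested. Of the 39 calls, 29 held when any 1 array was left out.

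**Figure D3:**
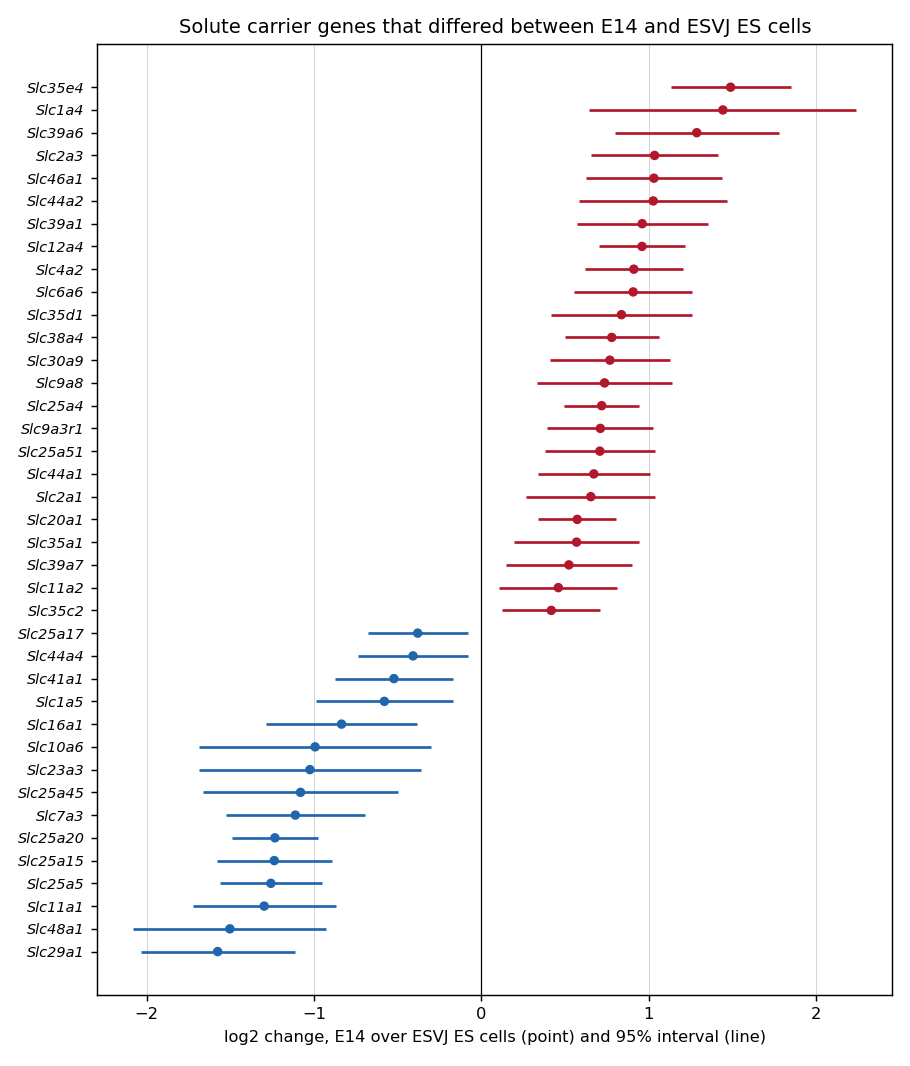
Log2 change in E14 over ESVJ ES cells (horizontal axis; points, with lines for the 95% interval) of the 39 solute carrier genes that passed, with 24 higher in E14 cells in red and 15 lower in blue. The changes run up to 1.49 for Slc35e4 and down to -1.57 for Slc29a1.

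Of 3 tested hexose carriers of subfamily 2, 2 were higher in E14 cells and 0 lower. Slc2a3 had signals of 8747, 5974 and 9265 in E14 cells, against 4576, 4010 and 3027 in ESVJ cells (1.03, SE 0.18, adjusted p = 2.92e-04), without overlap. Its mean over both probe sets did not pass (0.06, adjusted p = 0.874), and the second probe set overlapped between the lines. Slc2a1 had signals of 4585, 4904 and 4849 in E14 cells, against 3801, 2827 and 2574 in ESVJ cells (0.65, SE 0.18, adjusted p = 0.00953). Slc2a8, which encodes GLUT8, did not pass, at 418, 414 and 397 in E14 cells and 488, 484 and 589 in ESVJ cells (-0.32, adjusted p = 0.102). Carriers of inorganic ions counted 4 higher and 0 lower of 7 tested. Slc12a4 had signals of 846, 874 and 969 in E14 cells, against 439, 407 and 490 in ESVJ cells (0.96, SE 0.12, adjusted p = 1.79e-05). Slc4a2, which encodes the chloride and bicarbonate exchanger AE2, had signals of 505, 617 and 682 in E14 cells, against 318, 303 and 287 in ESVJ cells (0.91, SE 0.14). The other rises of this class were of Slc20a1 (0.57, SE 0.11) and of Slc9a8, a sodium-proton exchanger gene (0.74, SE 0.19).

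Nucleotide sugar carriers of subfamily 35 counted 4 higher and 0 lower of 9 tested. Slc35e4, a member without a known substrate, had signals of 477, 429 and 400 in E14 cells, against 129, 159 and 117 in ESVJ cells (1.49, SE 0.17, adjusted p = 6.04e-06), the largest rise among the solute carriers. Slc35d1 rose by 0.84 (SE 0.20), with 558, 352 and 531 in E14 cells and 290, 272 and 196 in ESVJ cells. Slc35a1 (0.57) and Slc35c2 (0.42) passed with all arrays, but the Slc35a1 call ended without any one of 2 arrays (adjusted p = 0.0539 without ESVJ replicate 2) and that of Slc35c2 without any one of 3 (adjusted p = 0.0864 without ESVJ replicate 1). The zinc importers of subfamily 39 counted 3 higher and 0 lower of 5 tested. Slc39a6 (ZIP6) had signals of 422, 513 and 509 in E14 cells, against 232, 120 and 198 in ESVJ cells (1.29, SE 0.23), and Slc39a1 had 790, 721 and 612 in E14 cells, against 394, 316 and 332 in ESVJ cells (0.96, SE 0.18). Slc39a7 rose by 0.52 and lost its call without any one of 2 arrays (0.28, adjusted p = 0.135 without ESVJ replicate 2).

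Among amino acid carriers, Slc1a4 (ASCT1) had signals of 538, 307 and 752 in E14 cells, against 277, 228 and 61.6 in ESVJ cells (1.44, SE 0.37, adjusted p = 0.00639). Slc6a6 had 1705, 1451 and 1396 in E14 cells, against 944, 788 and 664 in ESVJ cells (0.91, SE 0.17), and Slc38a4 had 2469, 2526 and 2164 in E14 cells, against 1294, 1236 and 1622 in ESVJ cells (0.78, SE 0.13). Slc7a3 went the other way, at 676, 765 and 1208 in E14 cells and 1852, 1726 and 2098 in ESVJ cells (-1.11, SE 0.20, adjusted p = 3.63e-04). By the probe sets used, none of these 4 genes overlapped between the lines. The second Slc6a6 probe set did, at 93.95, 138 and 100.5 in E14 cells and 141.5, 93.61 and 86.48 in ESVJ cells. Slc1a5 (ASCT2) fell by 0.58 and lost its call without any one of 3 arrays (-0.47, adjusted p = 0.0947 without ESVJ replicate 1). The choline-like transporter genes Slc44a2 and Slc44a1 rose, Slc44a2 by 1.03 (SE 0.21) and Slc44a1 by 0.67 (SE 0.16), and Slc46a1 rose by 1.03 (SE 0.19).

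Mitochondrial carriers counted 2 higher and 5 lower of 17 tested. Slc25a20 had signals of 378, 425 and 405 in E14 cells, against 914, 1056 and 1002 in ESVJ cells (-1.23, SE 0.12, adjusted p = 1.37e-06), the smallest p among the solute carriers. Slc25a15 had 553, 577 and 402 in E14 cells, against 1305, 1211 and 1187 in ESVJ cells (-1.24, SE 0.16). The ADP/ATP exchangers moved in opposite directions. Slc25a5 had 1114, 1199 and 1394 in E14 cells, against 2968, 2856 and 3138 in ESVJ cells (-1.26, SE 0.14), and Slc25a4 had 5115, 5376 and 5161 in E14 cells, against 3319, 3011 and 3146 in ESVJ cells (0.72, SE 0.10). The Slc25a5 probe set carries a suffix that marks probes shared within a gene family, and one of its 2 other probe sets read 189, 232 and 172 in E14 cells, against 400, 438 and 360 in ESVJ cells. Slc25a45 (-1.08, SE 0.27) fell as well, and the call of Slc25a17 (-0.38) ended without any one of 5 arrays (-0.22, adjusted p = 0.201 without ESVJ replicate 3). Slc25a51, the mitochondrial NAD carrier, rose by 0.71. Its second probe set overlapped, at 279.3, 364.8 and 215.5 in E14 cells and 224.1, 178.8 and 251.2 in ESVJ cells.

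The largest fall among the solute carriers was of Slc29a1, at 1191, 1415 and 761 in E14 cells and 3066, 3158 and 3721 in ESVJ cells (-1.57, SE 0.22, adjusted p = 3.89e-05). Slc48a1, which encodes a heme transporter of endosomes and lysosomes, had signals of 134, 63.2 and 235 in E14 cells, against 413, 467 and 399 in ESVJ cells (-1.50, SE 0.27). Slc11a1, the metal transporter NRAMP1 known from macrophages, had signals of 55.5, 93.0 and 104 in E14 cells, against 224, 293 and 234 in ESVJ cells (-1.30, SE 0.20). By the probe sets used, the lines did not overlap for these 3 genes. The second Slc29a1 probe set did overlap, at 108, 74.96 and 95.65 in E14 cells and 57.07, 99.98 and 135.4 in ESVJ cells. Slc16a1 fell by 0.83 (SE 0.21), with 115, 106 and 85.5 in E14 cells and 240, 183 and 201 in ESVJ cells. Slc10a6, a sodium-coupled carrier of sulfated steroids, fell by 0.99 and lost its call without E14 replicate 2 (-0.62, adjusted p = 0.107), and Slc23a3 fell by 1.02 and lost it without ESVJ replicate 3 (-0.69, adjusted p = 0.0896). The second Slc23a3 probe set overlapped, at 171.8, 210 and 176.8 in E14 cells and 162.7, 151.4 and 222.9 in ESVJ cells. The calls of Slc41a1 (-0.52), Slc44a4 (-0.41) and Slc11a2 (0.46), the iron importer DMT1, ended without any one of 2, 9 and 4 arrays, with adjusted p of up to 0.0997, 0.183 and 0.143. Of the genes listed for context, the sodium and proton pump genes counted 4 higher and 0 lower of 12 tested, led by Atp6ap1, a proton pump subunit gene (1.52, SE 0.16), and Emb, Txnip and Stom fell among 4 partner proteins. Abcb1b rose by 1.54 and its near relative Abcb1a fell by 1.46 among 7 Slco and ABC genes, and Aqp8, the single water channel tested, fell by 1.02.

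In Cdk4 +/- cells, which carry 1 mutated copy of a kinase gene of the cell cycle, 4 of 96 solute carriers passed against E14 cells. Of these, 3 were higher (3.12%) and 1 was lower (1.04%), beside 2.59% higher and 2.33% lower among all probe sets. The median change was 0.02 in both sets. All 3 that rose belong to subfamily 25, of which 17 were tested and 14 did not pass, with a median of 0.10 and a range of -0.48 to 0.79. Slc25a20 had signals of 694, 610 and 607 in Cdk4 +/- cells, against 378, 425 and 405 in E14 cells (0.62, SE 0.12, adjusted p = 0.0121). Slc25a36 had 2931, 2320 and 2602 in Cdk4 +/- cells, against 1453, 1710 and 1766 in E14 cells (0.66, SE 0.13, adjusted p = 0.0125). Slc25a17 had 1236, 1409 and 1371 in Cdk4 +/- cells, against 1002, 859 and 877 in E14 cells (0.54, SE 0.14, adjusted p = 0.0414). Each lay higher in all 3 Cdk4 +/- arrays than in any E14 array. Slc38a10, a neutral amino acid carrier, had 375, 630 and 426 in Cdk4 +/- cells, against 717, 805 and 676 in E14 cells (-0.61, SE 0.17, adjusted p = 0.0461), again without overlap. Abca1 +/- and ESVJ cells had Slc25a20 signals of 900 to 1063, above both of these lines, so the higher Slc25a20 signal of Cdk4 +/- cells lay between those of E14 and the feeder-grown lines.

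**Figure D4:**
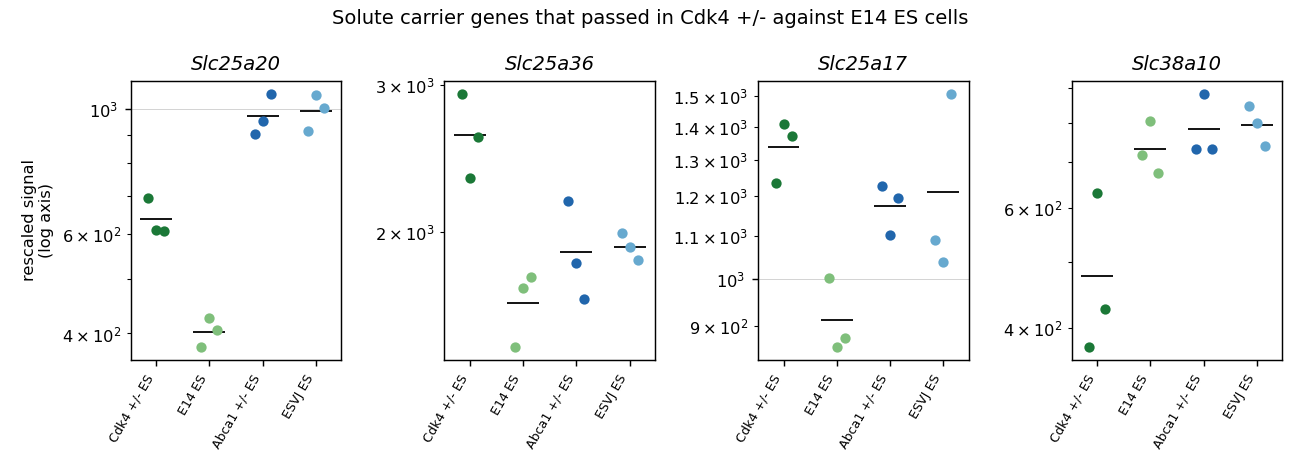
Rescaled signal (log axis) of the 4 solute carrier genes that passed in Cdk4 +/- against E14 ES cells, in the 12 ES arrays by group; points are arrays and bars are means over 3 arrays. Slc25a20, Slc25a36 and Slc25a17 are higher and Slc38a10 is lower in all 3 Cdk4 +/- arrays than in the E14 arrays.

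None of the 4 calls held against each array left out. Slc25a20 lost its call without Cdk4 +/- replicate 1 (0.56, adjusted p = 0.0668) or E14 replicate 1 (0.58, adjusted p = 0.0555). Slc25a36 lost it without Cdk4 +/- replicate 1 (0.58, adjusted p = 0.0683), Cdk4 +/- replicate 3 (0.66, adjusted p = 0.0581) or E14 replicate 1 (0.58, adjusted p = 0.0609). For Slc25a17 this held for 8 arrays, with 0.50 and adjusted p = 0.146 without E14 replicate 2, and for Slc38a10 for 10, with -0.47 and adjusted p = 0.2 without Cdk4 +/- replicate 1. An unadjusted p under 0.05 was found for 25 of the 96 genes (26%), beside 20.8% of all probe sets. Next by p was Slc25a25, at 876, 812 and 742 in Cdk4 +/- cells and 498, 529 and 677 in E14 cells (0.50, adjusted p = 0.0785). Outside the solute carriers, Txnip, which encodes an arrestin that draws GLUT1 from the plasma membrane, was the single one of 4 tested partner proteins to pass, at 2261, 2042 and 2194 in Cdk4 +/- cells and 643, 918 and 811 in E14 cells (1.43, SE 0.13, adjusted p = 7.82e-05). Slc2a1 itself had signals of 3501, 4938 and 3303 in Cdk4 +/- cells and 4585, 4904 and 4849 in E14 cells and did not pass.

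In Abca1 +/- ES cells, which carry 1 mutated copy of the cholesterol exporter gene, 0 of 96 solute carriers passed against ESVJ cells by limma, and 5 had an unadjusted p under 0.05 (5.21%), beside 3.28% of all probe sets. Calls were also rare over the array, at 0.0272% of probe sets. The median change was 0.00 in both sets. The 5 genes are given as values, each with an adjusted p of 0.9997. Slc25a3, the mitochondrial phosphate carrier, had signals of 220, 112 and 246 in Abca1 +/- cells and 59.2, 65.7 and 43.6 in ESVJ cells (1.30, SE 0.36), by a probe set that read at most 246 in all 16 arrays. Slc46a1 had 99.8, 112 and 89.0 in Abca1 +/- cells and 65.9, 53.1 and 57.4 in ESVJ cells (0.54, SE 0.19). Slc10a6 had 77.8, 68.8 and 92.8 in Abca1 +/- cells and 128, 152 and 213 in ESVJ cells (-0.80, SE 0.33). These 3 genes did not overlap between the groups, while Slc9a8 (0.45) and Slc1a4 (0.84) did. Of the 96 solute carriers, 3 were higher (3.1%) and 4 lower (4.2%) without overlap. The share of all probe sets without overlap was not counted here, so these counts say nothing particular to solute carriers.

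The difference between both mutation effects in ES cells was tested as an interaction. None of 96 solute carriers passed by limma, 15 had an unadjusted p under 0.05 (15.6%, beside 15.2% of all probe sets), and 0.626% of all probe sets passed. The 5 with the smallest p were Slc25a20 (0.65, SE 0.17, adjusted p = 0.0999), Slc25a36 (0.69, adjusted p = 0.105), Slc25a4 (-0.51), Slc12a4 (-0.49) and Slc25a17 (0.56). The genes that passed in Cdk4 +/- cells are therefore not shown to respond differently in Abca1 +/- cells.

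Livers labelled Abca1 +/- were set against +/+ livers with 2 arrays each. None of 101 solute carriers passed by limma, 25 had an unadjusted p under 0.05 (24.8%, beside 18.4% of all probe sets), and the smallest adjusted p was 0.101. Of all probe sets, 0.0140% passed. The median change was 0.39 for the solute carriers and 0.11 for all probe sets. Both livers labelled Abca1 +/- lay above both +/+ livers for 46 solute carriers (45.5%) and below them for 13 (12.9%), beside 30.3% and 21.4% of all probe sets. Single livers differed from the mean of the other 3. The median difference of the solute carriers was 0.48 and 0.04 for replicates 1 and 2 of the livers labelled Abca1 +/-, and -0.14 and -0.32 for replicates 1 and 2 of the +/+ livers. Over all probe sets it was 0.22 and -0.01 for the livers labelled Abca1 +/- and -0.05 and -0.06 for the +/+ livers. Without replicate 2 of the livers labelled Abca1 +/-, with the lone liver assumed to vary like the others, 25 of 102 solute carriers passed, beside 22.8% of all probe sets, a share near that of the array. Without replicate 1 of that group, 0 of 100 passed, beside 0.13% of all probe sets, and without +/+ liver replicate 1, 1 of 104 passed, beside 1.13%.

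The 5 genes with the smallest p are given as values. Slc6a6, the taurine carrier, had signals of 1341 and 1112 in livers labelled Abca1 +/-, against 334 and 331 in +/+ livers (1.78, SE 0.33, adjusted p = 0.101). Slc4a4, the sodium bicarbonate cotransporter NBCe1, had 526 and 360 in livers labelled Abca1 +/-, against 62.6 and 93.3 in +/+ livers (2.10, SE 0.39, adjusted p = 0.101). Slc12a7 had 1200 and 460 in livers labelled Abca1 +/-, against 198 and 105 in +/+ livers (2.13, SE 0.47, adjusted p = 0.113). By the probe sets used, both livers of the group labelled Abca1 +/- were above both +/+ livers for each, while the second Slc6a6 probe set overlapped. The same order held for Slc35d1, at 3603 and 1610 in livers labelled Abca1 +/- and 809 and 529 in +/+ livers (1.83, SE 0.43), and for Slc44a1, at 842 and 600 in livers labelled Abca1 +/- and 254 and 231 in +/+ livers (1.44, SE 0.34). Among hepatocyte carriers, none of 13 tested passed, with a median of 0.59 and a range of -0.56 to 1.41. Summed signals of 8 markers of kidney, gut and pancreas, of which 0 of 4 tested passed, were at 1963 to 3423 in livers labelled Abca1 +/- and 4503 to 5760 in +/+ livers, those of 6 hepatocyte markers at 132000 to 178400 in livers labelled Abca1 +/- and 144600 to 165100 in +/+ livers, and those of 6 blood and immune cell markers at 18180 to 24040 in livers labelled Abca1 +/- and 18560 to 21150 in +/+ livers. Signals of the BioB hybridisation control were 1022 to 1446 in livers labelled Abca1 +/- and 1830 to 3550 in +/+ livers. The part of these markers and of BioB in the result was not tested.

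Whether the mutation label goes with different changes in liver and in ES cells was tested as an interaction over 10 arrays. Of 110 solute carriers, 3 had a higher change in liver (2.73%) and 1 a lower one (0.909%), beside 2.02% and 0.368% of all probe sets. The median difference was 0.35 for the solute carriers and 0.12 for all probe sets. For Slc6a6 the difference was 1.59 (SE 0.31, adjusted p = 0.0318), with signals of 722, 1033 and 1008 in Abca1 +/- ES cells and 944, 788 and 664 in ESVJ cells. The second Slc6a6 probe set overlapped between the livers, at 282.3 and 107.5 in those labelled Abca1 +/- and 111.8 and 28.07 in +/+ livers. For Slc44a1, which encodes the choline carrier CTL1, it was 1.51 (SE 0.31, adjusted p = 0.0334), with 254, 247 and 302 in Abca1 +/- ES cells and 320, 268 and 261 in ESVJ cells. For Slc12a7 it was 2.07 (SE 0.47, adjusted p = 0.044), with 612, 637 and 596 in Abca1 +/- ES cells and 581, 648 and 533 in ESVJ cells. By the probe sets used, the ES groups overlapped for all 3 genes, whereas the liver groups did not. Slc25a5 had the lower change (-1.40, SE 0.33, adjusted p = 0.0456), with 933 and 1407 in livers labelled Abca1 +/-, 2449 and 3691 in +/+ livers, 2662, 3072 and 3520 in Abca1 +/- ES cells and 2968, 2856 and 3138 in ESVJ cells. The suffix of this probe set marks probes shared within a gene family. Of its 2 other probe sets, 1 overlapped between the livers, at 141.3 and 263.9 in those labelled Abca1 +/- and 235.3 and 367.2 in +/+ livers. The other was lower in both livers labelled Abca1 +/-. All 4 calls ended without any one of 8 of the 10 arrays, with adjusted p between 0.0537 and 0.186. Without replicate 2 of the livers labelled Abca1 +/-, 30 of 111 solute carriers passed, beside 25.4% of all probe sets, again near the share of the array, and without replicate 1 of that group 0 of 107 passed, beside 1.31%. Quantile normalization, which moved the median of all probe sets by 0.13, left 0 calls, as did a term for BioB.

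**Figure D5:**
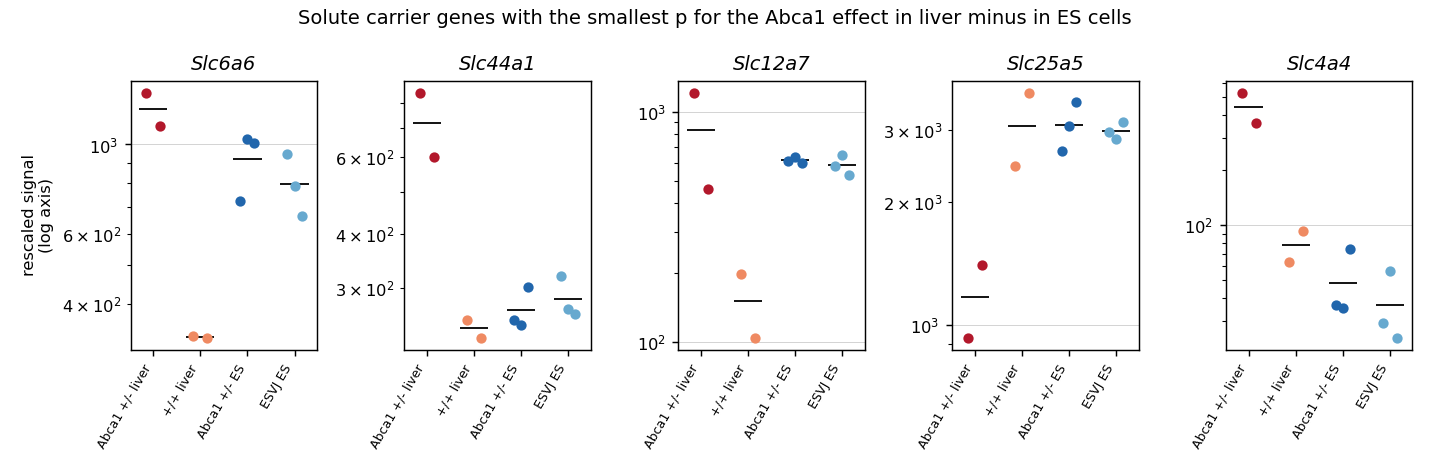
Rescaled signal (log axis) of the 5 solute carrier genes with the smallest p for the Abca1 effect in liver minus in ES cells, by array in 4 groups; points are arrays and bars are means over 2 livers or 3 ES arrays. For Slc6a6, Slc44a1, Slc12a7 and Slc4a4 both livers labelled Abca1 +/- are above both +/+ livers, for Slc25a5 they are below, and the ES groups lie close together.

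Amino acid carriers known as targets of ATF4, the transcription factor of the amino acid and stress response, were counted in each comparison. The list was chosen with earlier results of these data known and is not independent evidence. Of 10 listed genes, 9 were on the array, and Slc7a11 and Slc7a1 read at most 60.4 and 22.1 in all 16 arrays and were in no fit. In +/+ liver against ESVJ cells, 1 of 7 tested passed as higher (Slc6a9) and 5 as lower (Slc7a3, Slc7a5, Slc38a2, Slc3a2 and Slc1a5), with a median of -1.94. Of all probe sets tested, 23.5% passed as higher and 43.9% as lower in that comparison. The Slc1a5 call (-1.16, adjusted p = 0.0167) ended without any one of 2 arrays (-0.65, adjusted p = 0.215 without +/+ liver replicate 1). In E14 against ESVJ cells, 1 rose (Slc1a4) and 2 fell (Slc7a3 and Slc1a5), with a median of 0.04, beside 19.8% and 22.8% of all probe sets. In Cdk4 +/- against E14 cells, 0 of 7 passed, with a median of 0.27 and the highest value for Slc1a4, at 1024, 872 and 1304 in Cdk4 +/- cells and 538, 307 and 752 in E14 cells (1.02, SE 0.37, adjusted p = 0.134). In Abca1 +/- ES cells 0 of 7 passed with a median of 0.06, and in livers labelled Abca1 +/- 0 of 5 passed with a median of 0.66. In the tests of the difference between effects, 0 of 7 passed for Cdk4 minus Abca1 in ES cells (median 0.18) and 0 of 7 for liver minus ES cells (median 0.50).

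Slc44a1, the gene chosen to mark the set, lies on chromosome 4. It had signals of 842 and 600 in livers labelled Abca1 +/-, 254 and 231 in +/+ livers, 646, 595 and 694 in Cdk4 +/- cells, 473, 564 and 386 in E14 cells, 254, 247 and 302 in Abca1 +/- ES cells and 320, 268 and 261 in ESVJ cells. The livers labelled Abca1 +/- and the Cdk4 +/- and E14 cells lay above the other groups, and +/+ livers, Abca1 +/- ES cells and ESVJ cells were within 231 to 320. It passed in E14 against ESVJ cells and in the difference between tissues, and it did not pass in Cdk4 +/- against E14 cells (0.43, SE 0.16, adjusted p = 0.131) or in +/+ liver against ESVJ cells (-0.20, adjusted p = 0.45).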

How the data were processed

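RNA of 16 samples was measured on Affymetrix U74Av2 arrays. The deposited values are MAS5.0 signal intensities, normalized by the authors with the default settings, per the labels. Each array was rescaled to a 2% trimmed mean of 500 (deposited, 1501 to 1502), and 32 was added before log2. Of 12488 probe sets, 10855 name 1 gene, 396 several and 1237 none, in an annotation that can be old. limma 3.58.1 (R 4.3.3; lmFit and eBayes with an intensity trend) was fitted to the 4 ES groups (7349 probe sets), the livers (7160) and the livers with the feeder-grown ES lines (7883), after leaving out control probe sets and those with a mean signal under 100, with Benjamini-Hochberg adjustment over all probe sets of a fit. The number of arrays limits the precision. The scripts were tested on simulated data. Members and lists were chosen with earlier results of these data known. Genes named are those with the largest change or smallest p in each comparison, the highest signals of the larger subfamilies, and listed genes; some further called members are named for completeness. Alternatives covered the deposited scale, quantile normalization, the pseudocount, the filter, the choice of probe set, the arrays of the fit, the BioB control and leaving out each array.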

Additional observations from a re-analysis of the deposited data

Results flagged for a closer look

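The change in livers labelled Abca1 +/- over +/+ livers differed from the change in Abca1 +/- ES cells over ESVJ cells, by limma's interaction term, for 4 solute carriers. The difference was 1.59 for Slc6a6, with a change of 1.78 in liver and 0.20 in ES cells. It was 1.51 for Slc44a1, with 1.44 in liver and -0.07 in ES cells, and 2.07 for Slc12a7, with 2.13 in liver and 0.07 in ES cells. For Slc25a5 it was -1.405, with -1.37 in liver and 0.04 in ES cells, by a probe set whose suffix marks probes shared within a gene family. With suffixed probe sets left out, 0 solute carriers had a lower change. Each rests on 2 livers per group and lost its call when any one of 8 of the 10 arrays was left out. The second Slc6a6 probe set overlapped between the liver groups.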

How the results depend on the processing

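Counts of solute carriers that passed moved by over 1.5 times in 3 comparisons. In Cdk4 +/- against E14 cells, 4 passed, against 2 without the filter, 2 without the intensity trend, 2 with these groups alone and 0 with all 16 arrays in 1 fit, and 0 to 7 with 1 array left out. In livers labelled Abca1 +/- against +/+ livers, 0 passed, against 30 of 108 with all 16 arrays in 1 fit, beside 25.1% of all probe sets, and 0 to 25 with 1 array left out, where the highest count, 25 of 102, stood beside 22.8% of all probe sets. For the difference between liver and ES cells, 4 passed, against 0 under quantile normalization, 2 without the filter, 2 with the mean of all probe sets, 15 of 108 with all 16 arrays in 1 fit (9.86% of all probe sets) and 0 with BioB as a term, and 0 to 30 with 1 array left out. The cause was not tested. With 1 array left out, the count was 59 to 74 for +/+ liver against ESVJ cells, 33 to 43 for E14 against ESVJ cells, and 0 to 0 for both Abca1 +/- ES comparisons. Of 2585 values of 115 called gene results under these alternatives, 2387 kept direction and call, 197 lost the call and 1 changed sign, that of Slc23a3 in E14 against ESVJ cells with suffixed probe sets left out (0.059, adjusted p = 0.812). No paired analysis was possible because the labels carry no replicate numbers, and those used here only name arrays in record order.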
